A study of Rattus norvegicus with 210 samples.

Results

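The preoptic area (POA) of female Sprague-Dawley rats at postnatal day (PND) 22 was compared between K6, perinatal ketoconazole (KTZ) at 6 mg/kg bw/day, and control, which received the corn oil vehicle. The comparison rests on 10 libraries of messenger RNA, 5 for each group, of the 210 libraries of the series, and they were chosen by the group, tissue and age in their labels. Dams were gavaged once daily from gestational day 7 until weaning at PND22 with a pause on the day of birth, so the pups met the compound through the placenta and the milk. Further POA libraries are used for comparison: K3 and K12 at PND22, which received 3 and 12 mg/kg bw/day, and control and K6 at PND42. Each library holds the RNA of the dissected tissue of a rat, with all its cell types, and the litters of the rats are not given in the sources used here. The p-values therefore measure the spread between these libraries, and a lower level can come from fewer cells of a type or from less RNA per cell, which bulk tissue cannot tell apart.

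KTZ is an azole antifungal. Azoles bind the heme of cytochrome P450 enzymes, among them the sterol 14-demethylase Cyp51 and the enzymes that make steroid hormones. The POA holds most cell bodies of the neurons that release gonadotropin-releasing hormone (GnRH) and cells that respond to estrogens and progesterone. In the weanling rat it is also a tissue in which oligodendrocytes mature and myelin is laid down.

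The control libraries held 12601314 to 15521703 reads assigned to genes (median 13111764) and the K6 libraries 14082111 to 18199259 (median 17047557). The K6 libraries were thus on average deeper, while the ranges overlapped, and the part of depth in the results was not tested. Levels are given as CPM, the reads of a gene per 1000000 reads assigned to genes in its library. Fold changes are on the log2 scale, computed with TMM factors and given with their standard error (SE), and levels of different genes are not compared because CPM are not scaled to length.

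One control library stood apart from its label. Control replicate 4 of the POA had Foxb1, a transcription factor of the mammillary nuclei, at 11.0 CPM, whereas the other control libraries lay between 1.74 and 3.97 CPM and K6 between 1.34 and 2.70 CPM. Lmx1a, another mammillary gene, was at 15.2 CPM in this library and between 0.473 and 0.857 CPM in the other control libraries. The arcuate peptide transcript Pomc reached 30.0 CPM and Pmch of the lateral hypothalamus 1400 CPM, within the range of 27.3 to 55.4 CPM and 823 to 1573 CPM in the 5 control libraries of the mediobasal hypothalamus (MBH) of the same age. Gnrh1 was at 0.794 CPM in replicate 4 and between 3.47 and 7.86 CPM in the other 4, and the MBH libraries had at most 1.83 CPM. The library carried the label POA but had the region genes of the MBH, and the counts, the genes with the largest changes and the calls that change are therefore also given without it. Of the called list members named below, all but Rps13, Mt-nd5, Mt-atp6, Cabp1 and Bhlhe41 also passed without it.

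**Figure D1:**
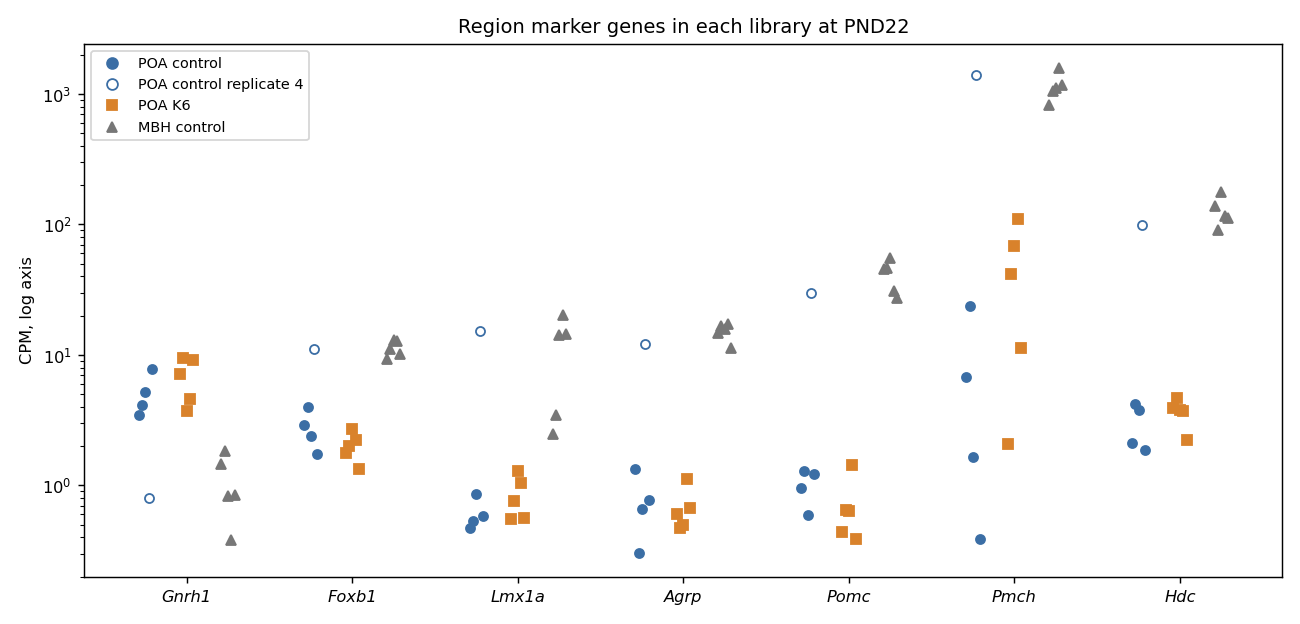
CPM (log axis) of 7 region marker genes in each library at PND22, for the 5 control libraries of the POA (circles, replicate 4 open), the 5 K6 libraries of the POA (squares) and the 5 control libraries of the MBH (triangles). Replicate 4 lies with the MBH libraries for all 7 genes, for example at 0.794 CPM for Gnrh1 and 1400 CPM for Pmch.

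In their preoptic and mammillary genes the K6 libraries matched the POA label. Of the 14 tested genes of a list of preoptic markers, 0 passed the test in either direction, and their summed level lay between 529 and 656 CPM in K6 and between 336 and 666 CPM in control, where replicate 4 was the lowest. The mammillary list summed to 2.01 to 4.19 CPM in K6. The list of the arcuate, ventromedial and lateral hypothalamus summed to 15.2, 58.5, 87.6, 133 and 21.4 CPM in K6. In control it summed to 28.4, 42.6, 17.1, 1614 and 10.8 CPM, so K6 replicates 2 to 4 lay above every control library except replicate 4. Pmch alone was at 2.09, 41.5, 67.8, 110 and 11.3 CPM in K6. The part of dissection in the results was not tested.

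After exposure to K6, 19 of 76 ribosomal protein genes were higher and 1 was lower, and 9 of 72 nuclear respiratory chain genes were higher and 3 lower. The oligodendrocyte factor Nkx2-2 and the neuronal marker Rbfox3 were lower and passed in each of the 10 fits that left out 1 library. Sox10, another oligodendrocyte factor, was lower but passed in 2 of those fits. Of 14329 genes tested with edgeR's quasi-likelihood test, 602 passed an adjusted p-value of 0.05 (4.20%), 274 higher (1.91%) and 328 lower (2.29%) in K6. Without control replicate 4, 542 of 14412 genes passed (3.76%), 227 higher (1.58%) and 315 lower (2.19%). With DESeq2, 1168 passed (8.15%), 530 higher (3.70%) and 638 lower (4.45%). The genes shared by both edgeR fits were 448, all with the same sign, of which 199 were higher and 249 lower. The changes were small: 516 of the 602 genes had an absolute log2 fold change under 0.5, the median was 0.27 for the higher and -0.34 for the lower genes, and 7 reached an absolute value of 1.

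Those 7 genes were Rps13, Trnp1, Fam222a, Zfp580, Nkx2-2 and Sox12, which were lower, and Vamp5, which was higher. Vamp5, Trnp1 and Sox12 are outside the rule for named genes and were added after their values were seen. Their log2 fold changes were 1.56 for Vamp5 (SE 0.32), -1.28 for Trnp1 (SE 0.32) and -1.09 for Sox12 (SE 0.22). All but Rps13 also passed without control replicate 4.

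The number of genes depended on single libraries. It fell to 392 without control replicate 2, to 246 without control replicate 3, and to 279, 192, 269 and 365 without K6 replicates 1, 2, 3 and 5. Of the 602 genes, 173 passed in each of the 10 fits that left out 1 library, 70 of them higher and 103 lower.

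The genes with the largest upward change among those called with and without control replicate 4 were Tspan1, Rpl22l1, RT1-CE4, Rps28, Bmper, Zbed5, D430019H16Rik, Tmem177, Rpl19, Sec61g, Txn1 and Fmc1. Tspan1 (ENSRNOG00000023320), a tetraspanin of the cell membrane, was at 6.63, 6.18, 4.81, 6.19 and 5.73 CPM in control replicates 1 to 5 and at 11.9, 8.51, 8.95, 15.6 and 11.1 CPM in K6. All K6 libraries were above all control libraries, with K6 replicate 4 the highest, and the log2 fold change was 0.89 (SE 0.16, adjusted p = 0.0114).

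Rpl22l1 (ENSRNOG00000011817), a paralog of the ribosomal protein L22, was at 28.0, 22.3, 26.8, 29.5 and 29.9 CPM in control and at 46.4, 49.7, 48.6, 50.1 and 45.0 CPM in K6. Both groups were tight and far apart, and the log2 fold change was 0.78 (SE 0.08, adjusted p = 0.00114). Rps28 (ENSRNOG00000042886), a protein of the small ribosomal subunit, had 27.9, 30.4, 33.0, 30.4 and 31.4 CPM in control and 45.6, 49.6, 48.6, 48.0 and 45.9 CPM in K6. The 2 groups did not overlap, with a log2 fold change of 0.60 (SE 0.06, adjusted p = 0.00114). Both genes passed in each of the 10 fits without 1 library.

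RT1-CE4 (ENSRNOG00000039744), a class I gene of the rat major histocompatibility complex, was at 4.65, 4.58, 4.68, 3.41 and 3.61 CPM in control and at 5.82, 7.63, 7.46, 7.22 and 7.72 CPM in K6. K6 replicate 1 lay nearest to control, and the groups did not overlap (log2 fold change 0.74, SE 0.14, adjusted p = 0.0127). Class I genes have near-identical copies, so its reads may be shared with other genes of the family.

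Txn1 (ENSRNOG00000012081), the cytosolic thioredoxin that reduces protein disulfides, was at 42.6, 47.1, 42.4, 52.6 and 47.5 CPM in control and at 67.8, 68.5, 66.8, 67.2 and 67.3 CPM in K6. The K6 libraries differed from each other by less than the control libraries did (SD 0.657 against 4.21 CPM, n = 5 each), and the log2 fold change was 0.51 (SE 0.06, adjusted p = 0.00324). Sec61g, the small subunit of the channel through which proteins enter the endoplasmic reticulum, rose from 22.3 ± 2.79 to 32.6 ± 1.43 CPM (SD, n = 5; log2 fold change 0.51, SE 0.08). Rpl19, of the large ribosomal subunit, rose from 151 ± 7.45 to 222 ± 31.0 CPM.

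The other higher genes had log2 fold changes between 0.49 and 0.56. Bmper, a secreted regulator of bone morphogenetic protein signaling, rose from 7.28 ± 0.906 to 11.0 ± 1.27 CPM and Zbed5, which derives from a DNA transposase, from 11.1 ± 0.599 to 16.8 ± 2.95 CPM (SD, n = 5). Tmem177, a mitochondrial membrane protein that takes part in assembling cytochrome c oxidase, rose from 8.45 ± 0.65 to 12.5 ± 1.45 CPM. Fmc1, an assembly factor of the mitochondrial ATP synthase, rose from 5.63 ± 0.81 to 8.12 ± 0.502 CPM but passed in 1 of the 10 fits without 1 library. D430019H16Rik rose from 6.69 ± 0.80 to 9.96 ± 0.822 CPM. Without control replicate 4, the log2 fold change was 0.91 for Tspan1, 0.80 for Rpl22l1, 0.68 for RT1-CE4, 0.59 for Rps28, 0.59 for Bmper, 0.54 for Zbed5, 0.50 for D430019H16Rik, 0.53 for Tmem177, 0.52 for Rpl19, 0.46 for Sec61g, 0.55 for Txn1 and 0.53 for Fmc1, with adjusted p-values from 0.00225 for Rpl22l1 to 0.0488 for Fmc1.

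The 12 genes with the largest downward change were Fam222a, Zfp580, Nkx2-2, Nudc, Nkx6-2, Bean1, Ubald2, Marcksl1, Nkd1, Prr36, Nfic and Mn1. Nkx2-2 (ENSRNOG00000012728), a homeobox factor that directs the differentiation of oligodendrocytes, was at 4.18, 5.87, 4.22, 5.71 and 2.83 CPM in control and at 2.14, 2.23, 1.99, 2.17 and 1.73 CPM in K6. The K6 libraries lay close together below every control library, and the log2 fold change was -1.18 (SE 0.20, adjusted p = 0.0102). Nkx6-2 (ENSRNOG00000017748), a homeobox factor of mature oligodendrocytes, was at 5.60, 8.31, 7.84, 4.84 and 6.38 CPM in control and at 4.07, 3.23, 3.76, 4.40 and 3.13 CPM in K6. Its groups did not overlap either, although replicate 4 of control and of K6 came near each other (log2 fold change -0.87, SE 0.17, adjusted p = 0.0183).

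Nudc (ENSRNOG00000051720), a chaperone partner of the dynein motor, was at 15.8, 15.6, 15.0, 17.3 and 16.4 CPM in control and at 7.31, 7.51, 9.66, 10.8 and 6.26 CPM in K6. The control libraries were nearly level while K6 replicates 3 and 4 were above the other K6 libraries, and the groups stood apart (log2 fold change -0.99, SE 0.13, adjusted p = 0.00366).

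Zfp580 (ENSRNOG00000016274), a zinc finger gene, had 3.71, 4.27, 5.08, 4.13 and 2.71 CPM in control and 1.48, 1.53, 1.99, 2.23 and 1.57 CPM in K6 (log2 fold change -1.22, SE 0.20, adjusted p = 0.009). Fam222a (ENSRNOG00000001198) had 3.63, 5.03, 6.92, 3.81 and 4.96 CPM in control and 1.59, 1.41, 1.92, 2.63 and 2.91 CPM in K6 (log2 fold change -1.26, SE 0.25, adjusted p = 0.0156). In both genes the lowest control library remained above the highest K6 library.

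Transcriptional regulators were also among the others. Nfic, of the nuclear factor I family, fell from 16.4 ± 2.72 to 10.3 ± 1.5 CPM and Mn1, a transcriptional coregulator, from 14.2 ± 2.14 to 9.09 ± 0.759 CPM (SD, n = 5). Nkd1, an inhibitor of Wnt signaling, fell from 27.5 ± 6.28 to 17.1 ± 2.83 CPM, and the groups overlapped in 1 control and 1 K6 library. Marcksl1, which binds actin and calmodulin at the membrane, fell from 15.3 ± 4.35 to 8.91 ± 1.21 CPM and overlapped through control replicate 4, at 10.4 CPM, and K6 replicate 3, at 10.9 CPM.

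Bean1, which binds a ubiquitin ligase, fell from 9.20 ± 1.42 to 5.24 ± 0.643 CPM, and Ubald2 from 13.1 ± 1.30 to 7.63 ± 1.68 CPM. Prr36 fell from 69.4 ± 22.4 to 43.5 ± 3.32 CPM, with control replicate 5 at 107 CPM far above the rest. Leaving out control replicate 4 gave log2 fold changes of -1.34 for Fam222a, -1.20 for Zfp580, -1.09 for Nkx2-2, -0.96 for Nudc, -0.96 for Nkx6-2, -0.87 for Bean1, -0.85 for Ubald2, -0.93 for Marcksl1, -0.73 for Nkd1, -0.80 for Prr36, -0.61 for Nfic and -0.73 for Mn1, with adjusted p-values from 0.00707 for Nudc to 0.0358 for Nkd1. In 22 of the 24 genes the 2 groups did not overlap, beside 7.60% of all genes tested. The 24 were chosen by their change in these same libraries, so this number is a description and not further support. Of the 24 genes, 15 passed in each of the 10 fits without 1 library. DESeq2 called 21 of the 24 and gave no adjusted p-value for Fam222a, Zfp580 and Nkx2-2.

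**Figure D2:**
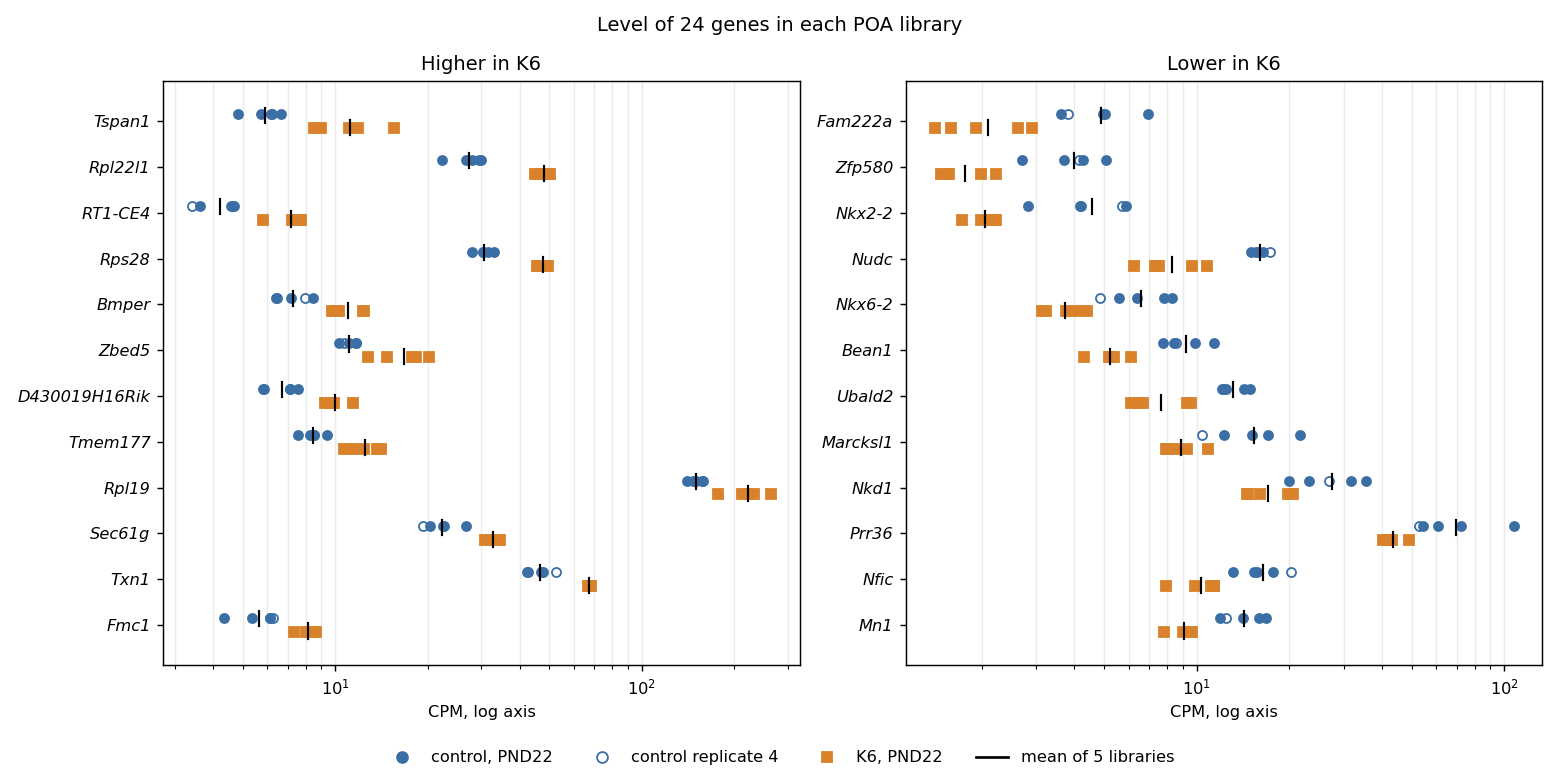
CPM (log axis) of the 12 genes with the largest upward (left) and downward (right) change in each POA library at PND22, with control as circles (replicate 4 open), K6 as squares and the mean of 5 libraries as a bar. In 22 of the 24 genes no K6 library overlaps a control library, and the exceptions are Marcksl1 and Nkd1.

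Cytosolic ribosomal proteins were the group with the most genes called, and also the largest group, with 76 genes tested. The ribosome is built from a small and a large subunit whose proteins are encoded by the Rps and Rpl genes. Their messenger RNAs are known to start with a run of pyrimidines, through which their translation follows nutrient signals. Start sites of 6 of the higher genes are shown because the family is known for such runs, 5 with a run and 1 without. They are 30 bases from RefSeq on GRCr8, 15 on each side of the annotated start, with the longest unbroken run of C and T in capitals where it held at least 8 bases.
Rpl19, chr10:83519049-83519078 (+): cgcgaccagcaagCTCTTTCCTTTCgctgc
Rpl10, chrX:157205835-157205864 (+): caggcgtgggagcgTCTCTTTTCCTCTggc
Rps23, chr2:23814502-23814531 (+): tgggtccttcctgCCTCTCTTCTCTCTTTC
Rps27, chr2:177964592-177964621 (-): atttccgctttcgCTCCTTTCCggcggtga
Rps28, chr7:15311319-15311348 (-): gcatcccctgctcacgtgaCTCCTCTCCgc
Rpl22l1, chr2:113683181-113683210 (+): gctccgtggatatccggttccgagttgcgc
The run was 12 bases long at Rpl19, 13 at Rpl10, 21 at Rps23 (cut by the window), and 9 at Rps27 and Rps28. At Rps28 it lay after the annotated start, so this transcript as annotated does not begin with it, whereas the other runs spanned the start. Rpl22l1, with the largest upward change of the 6, had no run of more than 4. A run of this length, read on the strand of the gene and overlapping the window, was present in 17.1% of 27457 RefSeq promoters of this table. The 6 genes are examples, so their runs are not read as a trait of the higher genes. No share is given for the whole group, since 59 of its 76 tested genes (77.6%) had an entry.

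Of 76 ribosomal protein genes tested, 19 were higher and 1 was lower in K6, against 1.91% and 2.29% of all genes. The median log2 fold change of the 76 was 0.16, beside -0.0002 for all genes tested. Without control replicate 4, 20 were higher and 0 lower, beside 1.58% and 2.19% of all genes, with a median of 0.18. DESeq2 called 24 higher and 3 lower, beside 3.70% and 4.45% of all genes. In 21 of the 76 the groups did not overlap, beside 7.60% of all genes. Summed over the group, the level was 8138, 8872, 8474, 9072 and 8428 CPM in control and 9954, 10123, 9509, 10277 and 9237 CPM in K6, so that every K6 library was above every control library.

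Rps23 (ENSRNOG00000016580), at the decoding center of the small subunit, was at 144, 151, 156, 151 and 147 CPM in control and at 214, 209, 191, 201 and 188 CPM in K6 (log2 fold change 0.39, SE 0.05, adjusted p = 0.00343). Rpl10 (ENSRNOG00000056765), a late-joining protein of the large subunit, was at 242, 247, 227, 251 and 239 CPM in control and at 312, 317, 297, 319 and 299 CPM in K6 (log2 fold change 0.32, SE 0.04, adjusted p = 0.00343). Both genes were raised in all 5 K6 libraries by an amount well over the spread within a group. Rps3, Rps18, Rps20, Rps25, Rps27, Rpl3, Rpl4, Rpl24, Rpl34, Rpl36a, Rpl37a and Rpl41 were among the others that were higher, with log2 fold changes between 0.21 and 0.37.

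The lower gene was Rps13 (ENSRNOG00000028021), at 9.70, 0.763, 10.2, 12.3 and 11.1 CPM in control and at 0.495, 0.528, 1.63, 1.12 and 3.97 CPM in K6. Control replicate 2 lay within the K6 range, and the adjusted p-value of 0.0414 rose to 0.0627 without control replicate 4. Ribosomal protein genes have many processed copies in the genome and the treatment of reads that align to several places is not stated, so values of single members are uncertain.

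The genes of the respiratory chain were listed by genome. Of 72 nuclear genes of its complexes and of the ATP synthase, 9 were higher and 3 lower, beside 1.91% and 2.29% of all genes. The 72 had a median log2 fold change of 0.10, and without control replicate 4 the numbers were 8 and 2. Ndufa2, a subunit of complex I, was at 36.7, 40.3, 45.1, 42.1 and 46.1 CPM in control and at 59.6, 61.8, 55.8, 55.9 and 60.6 CPM in K6 (log2 fold change 0.45, SE 0.07, adjusted p = 0.0077). Atp5mc1, which encodes the rotor ring of the ATP synthase, rose from 88.6 ± 10.8 to 126 ± 7.72 CPM and Cox7c, of cytochrome c oxidase, from 82.3 ± 5.14 to 108 ± 7.90 CPM (SD, n = 5). Atp5if1, which encodes the inhibitor of the ATP synthase, was among the lower ones and fell from 91.2 ± 5.02 to 73.7 ± 6.37 CPM (adjusted p = 0.0103).

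Of the 13 protein-coding genes of the mitochondrial genome, 3 were lower and 0 higher, beside 2.29% and 1.91% of all genes, and without control replicate 4 1 was lower. The median log2 fold change was -0.29. Mt-co2, the second subunit of cytochrome c oxidase, was at 8749, 8074, 8471, 9589 and 8738 CPM in control and at 6862, 7204, 7080, 7524 and 7432 CPM in K6 (log2 fold change -0.31, SE 0.05, adjusted p = 0.00666). All K6 libraries lay below all control libraries. Mt-nd5 (adjusted p = 0.0249) and Mt-atp6 (adjusted p = 0.0437) did not pass without control replicate 4, at 0.0518 and 0.0777. They passed in 4 and 1 of the 10 fits without 1 library. DESeq2 called 8 of the 13, all lower, beside 4.45% of all genes lower with DESeq2. The 13 genes summed to 70610 to 89372 CPM in control and to 65478 to 76622 CPM in K6. The nuclear genes of the chain summed to 8657 to 9925 and 9825 to 10477 CPM. In each sum the ranges of the groups overlapped.

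The targets of KTZ and the sterol pathway came next. Of 25 genes of cholesterol synthesis, 1 was lower, near the 2.29% of all genes, and 23 had a log2 fold change below 0, with a median of -0.14. The fit without control replicate 4 had 2 lower and a median of -0.19. The gene called was Sc5d, a sterol desaturase of the late pathway, at 259, 276, 267, 256 and 274 CPM in control and at 236, 227, 244, 213 and 248 CPM in K6 (log2 fold change -0.22, SE 0.06, adjusted p = 0.0452). The groups were separate by a narrow margin, and Sc5d passed in 2 of the 10 fits without 1 library. Cyp51, the sterol 14-demethylase, was at 203, 358, 308, 240 and 269 CPM in control and at 246, 209, 173, 199 and 242 CPM in K6 and did not pass (log2 fold change -0.40, SE 0.14, adjusted p = 0.137). Control replicates 1 and 4 were within the K6 range and the other 3 above it.

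Sqle, the squalene epoxidase, had a log2 fold change of -0.25 (SE 0.07, adjusted p = 0.0526). It did not pass with edgeR, whereas DESeq2 called 7 of the 25 genes, all lower, among them Cyp51 (adjusted p = 0.0447) and Sqle (adjusted p = 0.00841). Over all genes DESeq2 called 4.45% lower. Myelinating oligodendrocytes make much of the cholesterol of the brain, and the level of their markers is given below.

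In the list of steroid synthesis and metabolism, 1 of 17 genes was lower, beside 2.29% of all genes. It was Por, which hands electrons to the microsomal P450 enzymes, at 134 ± 8.40 CPM in control and 117 ± 7.77 CPM in K6 (SD, n = 5; log2 fold change -0.24, SE 0.05, adjusted p = 0.0324). Por passed in 3 of the 10 fits without 1 library. Cyp19a1, the aromatase that makes estradiol from testosterone, did not pass (log2 fold change 0.25, SE 0.24, adjusted p = 0.618) and Srd5a1, a steroid reductase, did not either (-0.43, SE 0.14, adjusted p = 0.104).

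Among 18 steroid receptors and their cofactors, 1 was lower and 0 were higher, beside 2.29% and 1.91% of all genes. The estrogen receptor genes Esr1 and Esr2 had log2 fold changes of 0.29 (SE 0.20) and 0.10 (SE 0.29), the progesterone receptor gene Pgr 0.10 (SE 0.13) and the glucocorticoid receptor gene Nr3c1 0.11 (SE 0.07), at adjusted p-values from 0.432 to 0.90. Without control replicate 4, which had the lowest Esr1 level (13.0 CPM, against 21.8 to 35.8 CPM), the value of Esr1 was 0.13 and that of Esr2 -0.08.

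Of 26 genes of the peroxisome proliferator-activated receptors, their partners and targets, 1 was lower and 0 higher, beside 2.29% and 1.91% of all genes. It was Ppard, which fell from 26.5 ± 2.00 to 20.9 ± 2.20 CPM (SD, n = 5; log2 fold change -0.38, SE 0.08, adjusted p = 0.0269). Ppard passed in 4 of the 10 fits without 1 library. Ppara (log2 fold change 0.29, SE 0.20) and the partner Rxra (-0.15, SE 0.09) did not pass. Pparg was between 0.153 and 0.473 CPM in control and between 0.0657 and 0.469 CPM in K6 and was too low to be tested.

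The GnRH network comprised 25 tested genes, and 0 passed in either direction, with or without control replicate 4 and with DESeq2. Gnrh1 (ENSRNOG00000013441) was at 3.47, 4.12, 5.21, 0.794 and 7.86 CPM in control and at 7.14, 9.44, 3.69, 4.60 and 9.12 CPM in K6. The groups overlapped and the lowest library was control replicate 4. The log2 fold change of 0.62 (95% interval -0.28 to 1.51, adjusted p = 0.447) was 0.36 without that library. Kiss1r, the kisspeptin receptor gene, had a value of -0.20 (SE 0.14), the neurokinin B gene Tac3 0.08 (SE 0.12), and the puberty genes Mkrn3 and Igsf10 -0.15 (SE 0.20) and -0.17 (SE 0.15). Kiss1 was too low to be tested, with 0.229 to 1.89 CPM in control and 0.336 to 1.90 CPM in K6.

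Of 23 neuropeptide genes, 0 passed in either direction in the same 3 analyses. Oxytocin (Oxt) was at 210, 198, 142, 8.33 and 70.5 CPM in control and at 84.2, 139, 169, 218 and 77.7 CPM in K6, and vasopressin (Avp) ranged from 17.8 to 99.6 CPM and from 22.2 to 99.2 CPM. The log2 fold changes were 0.09 for Oxt (SE 0.55) and 0.25 for Avp (SE 0.45), and the groups overlapped. Galanin (Gal) and neurotensin (Nts) had log2 fold changes of -0.18 (SE 0.13) and -0.03 (SE 0.30). The list held the arcuate and lateral transcripts Pomc, Agrp, Pmch and Hcrt, which did not pass. Their fitted values lay between -3.28 and -2.18, and control replicate 4 had the high levels of Pomc, Agrp and Pmch among the control libraries.

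Lists of signaling genes held between 0 and 2 called members, where 1.91% of all genes were higher and 2.29% lower. Of 22 GABA receptors and transporters, Slc6a11, the glial GABA transporter GAT-3, rose from 340 ± 29.7 to 409 ± 19.3 CPM (adjusted p = 0.0489). Slc6a11 passed in 3 of the 10 fits without 1 library and not with median-of-ratios factors (adjusted p = 0.0505), and without control replicate 4 the list had 1 higher and 1 lower gene. Of 28 glutamate receptor genes 0 passed. Of 31 genes of the CREB pathway, the coactivator gene Crtc1 fell from 43.1 ± 2.76 to 30.2 ± 5.57 CPM (adjusted p = 0.0119). Of 27 calcium channel and calcium sensor genes, Cacng7 fell from 169 ± 8.55 to 132 ± 12.3 CPM (adjusted p = 0.0108). Cabp1 fell from 18.6 ± 5.04 to 11.6 ± 2.25 CPM (SD, n = 5) but did not pass without control replicate 4 (adjusted p = 0.0827). It passed in 2 of the 10 fits without 1 library.

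Of 29 chromatin regulators, 3 were lower and 0 higher, beside 2.29% and 1.91% of all genes, among them Ring1, of the Polycomb repressive complex, and Kdm6b, which removes the methyl groups that Polycomb places on histone H3. The groups of Kdm6b (log2 fold change -0.44, SE 0.10) and Ring1 (-0.29, SE 0.08) overlapped through K6 replicate 4, and they passed in 3 and 2 of the 10 fits without 1 library. Of 20 immediate early genes, the AP-1 genes Jun (log2 fold change -0.27, SE 0.07) and Jund (-0.39, SE 0.09) were lower, beside 2.29% of all genes. They passed in 2 and 4 of the 10 fits without 1 library. Without control replicate 4, 3 of the 20 were lower, beside 2.19% of all genes. With all libraries, the median of the 20 was -0.43, and 18 had a value below 0. Their summed level was 259 to 358 CPM in control and 196 to 261 CPM in K6.

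Of 19 clock genes, Tef, an output factor of the clock, was higher (log2 fold change 0.22, SE 0.06) and Bhlhe41, a repressor of the clock, lower (-0.34, SE 0.09), and Bhlhe41 did not pass without control replicate 4 (adjusted p = 0.0541). Tef did not pass with median-of-ratios factors (adjusted p = 0.0507). In the 10 fits without 1 library, Bhlhe41 passed in 0 and Tef in 1. Of 16 genes of heat shock and unfolded protein responses, the cochaperone gene Bag3 was lower, at 22.4 to 27.1 CPM in control and 16.1 to 18.4 CPM in K6 (log2 fold change -0.53, SE 0.08, adjusted p = 0.0059). The calls in the clock and heat shock lists stand beside 1.91% of all genes higher and 2.29% lower. Of 12 targets of glucocorticoids, 8 genes of the thyroid hormone pathway and 20 of the insulin-like growth factor pathway, 0 passed, although 1 of the latter was lower without control replicate 4.

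**Figure D3:**
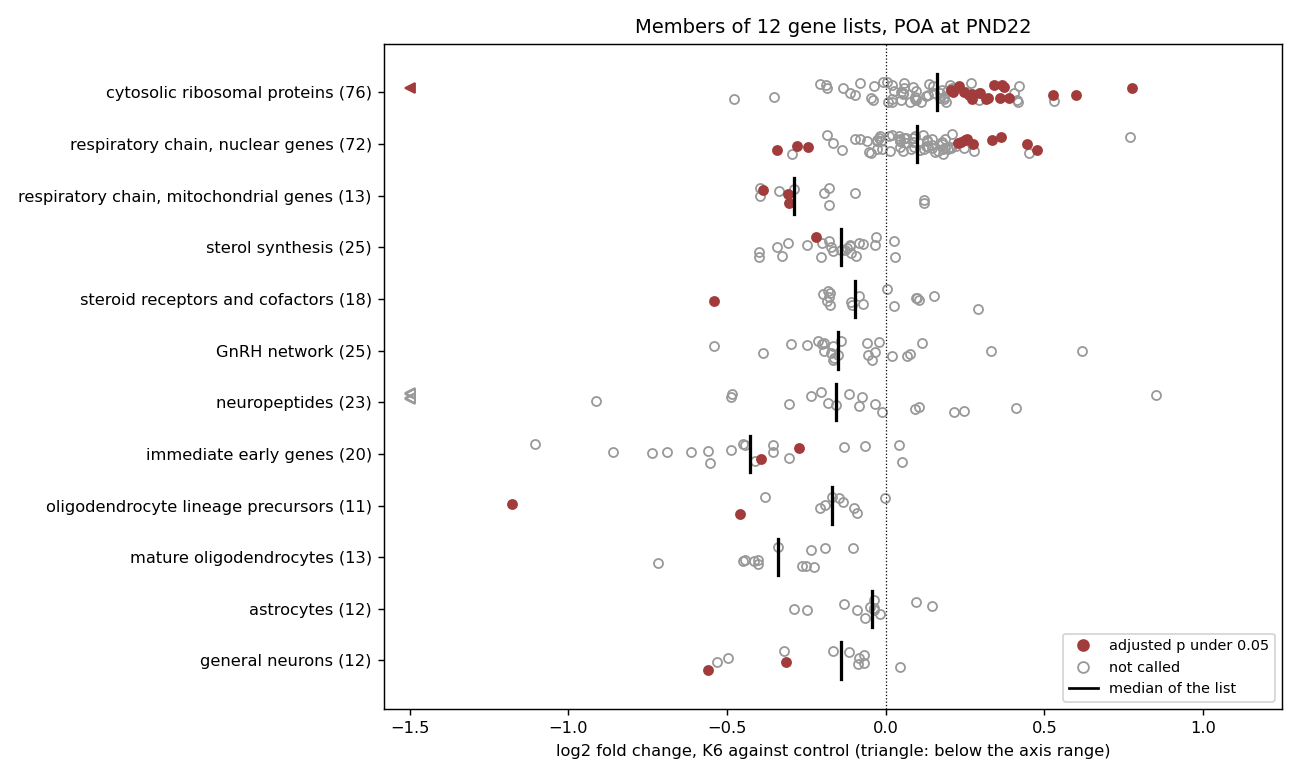
Log2 fold change of K6 against control for each tested member of 12 gene lists (number tested in parentheses), with filled points at an adjusted p-value under 0.05 and a bar at the median of the list. Ribosomal proteins and nuclear respiratory genes lie mostly above 0 (medians 0.16 and 0.10) and mitochondrial, immediate early and oligodendrocyte genes mostly below, and triangles mark Rps13 and the 4 peptide genes under -1.5.

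Cell type markers were examined for 20 lists, and 4 of them had a called member. Among 11 genes of the oligodendrocyte lineage before myelination, 2 were lower and 0 higher, beside 2.29% and 1.91% of all genes. The lower ones were Nkx2-2, above, and Sox10. Sox10, a factor of the entire lineage, was at 78.7, 123, 112, 79.1 and 94.0 CPM in control and at 72.5, 73.3, 72.4, 73.1 and 71.6 CPM in K6 (log2 fold change -0.46, SE 0.11, adjusted p = 0.0391). The K6 libraries were nearly identical, while control replicates 2 and 3 were the highest, and Sox10 passed in 2 of the 10 fits without 1 library. Gpr17, a receptor of cells about to myelinate, did not pass (log2 fold change -0.21, SE 0.15, adjusted p = 0.473).

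Of 13 genes of mature oligodendrocytes, 0 passed, and all 13 had a log2 fold change below 0 (median -0.34). Hapln2 had the most negative value, -0.72 (adjusted p = 0.126), and the myelin gene Mbp a value of -0.44 (adjusted p = 0.187). The summed level of the list was 14283, 29798, 26177, 17974 and 20032 CPM in control and 19854, 16928, 14269, 15963 and 21259 CPM in K6. Control replicates 2 and 3 had the highest levels and control replicate 1 one of the lowest, so the groups overlapped. These libraries also had the highest sums of the sterol list, 3648 and 3299 CPM, and the part of myelinating cells in the sterol values was not tested.

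Of 12 general neuronal markers, 2 were lower and 0 higher, beside 2.29% and 1.91% of all genes. The lower ones were Rbfox3, which encodes the nuclear antigen NeuN, and Syn1, a protein of synaptic vesicles. Rbfox3 was at 65.5, 58.4, 61.6, 54.5 and 52.3 CPM in control and at 39.5, 37.4, 44.7, 43.5 and 37.8 CPM in K6 (log2 fold change -0.56, SE 0.07, adjusted p = 0.00343). Every K6 library was below every control library. The sum of the 12 markers was 6553 to 7562 CPM in control and 6340 to 6861 CPM in K6, so the list as a whole overlapped.

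Nrgn, a calmodulin-binding protein of forebrain neurons and 1 of 6 tested genes of the cortical list, fell from 93.7 ± 8.85 to 65.6 ± 3.96 CPM (SD, n = 5; log2 fold change -0.55, SE 0.06, adjusted p = 0.00202). Chga, a protein of secretory granules and 1 of 2 tested genes of the pituitary list, fell from 353 ± 24.0 to 258 ± 16.6 CPM (log2 fold change -0.48, SE 0.06, adjusted p = 0.00343). These single calls stand beside 2.29% of all genes lower. Prl was at 0 in all 10 libraries, which allows up to 3 counts in each.

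The lists of astrocytes (12 genes), microglia (11), endothelial cells (8), pericytes and meningeal fibroblasts (9), ependymal cells and tanycytes (7), choroid plexus (6), blood (6) and immature and dividing cells (10) had 0 called members. The same held for the region lists of the suprachiasmatic nucleus (7), the thalamus (9), the striatum (9), the septum and bed nucleus (7), the mammillary nuclei (2) and the arcuate, ventromedial and lateral hypothalamus (9). Without control replicate 4, 2 of the 7 septal genes and 1 of the 14 preoptic genes were lower, beside 2.19% of all genes. The list of the septum and bed nucleus summed to 216, 208, 221, 82.4 and 205 CPM in control and 165 to 189 CPM in K6. Every K6 library was thus below every control library except replicate 4.

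K6 was then set directly against the lower and the higher dose, which shares no control library. Of 14502 genes tested against K3 and 14426 against K12, edgeR called 0 in both cases (0%), while 780 and 354 had an unadjusted p-value under 0.05. DESeq2 called 1 gene against K3 (0.00690%) and 0 against K12. Over the 602 genes, the 95% interval of the difference was 0.26 wide in the median against K3 and 0.27 against K12. Differences between the doses within such intervals were not detectable.

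Against control, 285 genes passed in K3 (1.99%; 1.93% without control replicate 4) and 561 in K12 (3.92%; 3.17% without it). Set side by side against the same 5 control libraries, which they share, the 274 higher genes had a median log2 fold change of 0.21 in K3, 0.27 in K6 and 0.25 in K12. The 328 lower genes had medians of -0.29, -0.34 and -0.33. These genes were chosen for passing in K6, which favors a larger median in K6, so the medians are a description and no order of the doses is read from them. For Nudc the values were -0.74 (SE 0.11), -0.99 (SE 0.13) and -0.97 (SE 0.10), and K6 differed from K3 by -0.26 with a 95% interval of -0.58 to 0.07. For Rpl22l1 they were 0.67 (SE 0.09), 0.78 (SE 0.08) and 0.53 (SE 0.10).

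The interval excluded 0 in some genes, without passing the adjustment. Tmem177 was 0.38 higher in K6 than in K3 (95% interval 0.14 to 0.63, adjusted p = 0.893), Zfp580 differed by -0.59 (interval -0.99 to -0.18, adjusted p = 0.893) and Rpl22l1 was 0.24 higher than in K12 (interval 0.08 to 0.40, adjusted p = 1.0).

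The same comparison was available at PND42, 20 days after the exposure ended, with 5 other control and 5 other K6 libraries. At this age edgeR called 0 of 14406 genes (0%), with 1538 at an unadjusted p-value under 0.05. Of the 602 genes, all of which were tested at PND42, 121 had the sign of PND22 and 481 the opposite sign, so that the sign was shared by 20.1% of them and by 41.7% of all 14169 genes tested at both ages. The median log2 fold change at PND42 was -0.06 for the genes higher and 0.15 for those lower at PND22. PND42 K6 replicate 5 held choroid plexus transcripts, with Ttr at 5264 CPM against at most 6.81 CPM in the other 9 libraries. Without it 114 of the 602 genes shared the sign, and the medians were -0.08 and 0.17.

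The difference between the ages was tested as an interaction over the 20 libraries. It passed for 975 of 14806 genes (6.59%), 1379 with DESeq2 (9.31%), 1023 without control replicate 4 (6.86%), 1224 without PND42 K6 replicate 5 and 1296 without both. Of the 602 genes, 455 (75.6%) were among the 975, and in all of them the interaction had the sign opposite to the PND22 effect. A loss of the effect at PND42 gives this sign as well as a reversal, for example in Tmem177 (log2 fold change -0.001 at PND42). These genes were chosen on PND22 libraries that also enter the interaction, so the share is a description. The same holds for the 24 genes with the largest changes, of which 20 passed the interaction.

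Nudc fell from 16.0 ± 0.865 to 8.30 ± 1.85 CPM at PND22 and had 8.13 ± 1.58 CPM in control and 12.5 ± 1.23 CPM in K6 at PND42 (SD, n = 5), a difference between the effects of 1.59 on the log2 scale (SE 0.19, adjusted p = 0.000153). Nkx2-2 had 1.91 ± 0.472 CPM in control and 2.57 ± 0.448 CPM in K6 at PND42 (SD, n = 5). The PND42 control level of both genes was near the K6 level of PND22. Rpl22l1 had 56.6 ± 4.98 CPM in control and 49.8 ± 6.38 CPM in K6 at PND42, after 27.3 ± 3.04 and 48.0 ± 2.21 CPM (SD, n = 5). Rps23 had 280 ± 14.5 and 239 ± 16.7 CPM, after 150 ± 4.51 and 201 ± 11.3 CPM.

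The ribosomal proteins as a group summed to 11107 to 13018 CPM in control and 10882 to 12418 CPM in K6 at PND42. Their median log2 fold change was -0.12, beside 0.0061 for all genes, and 26 of the 76 passed the interaction, beside 6.59% of all genes. The median of the mitochondrial genes was -0.26 at PND42 and -0.29 at PND22, and 1 of the 13 passed the interaction, near that share. The ribosomal and mitochondrial genes were not tested against each other. Mt-co2 had 7988 ± 689 CPM in control and 6325 ± 793 CPM in K6 at PND42 (log2 fold change -0.35, SE 0.09, adjusted p = 0.21). It was 1 of 3 of the 602 genes with the same sign and an unadjusted p-value under 0.05 at PND42, beside Mt-atp6 and Nhlrc1.

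**Figure D4:**
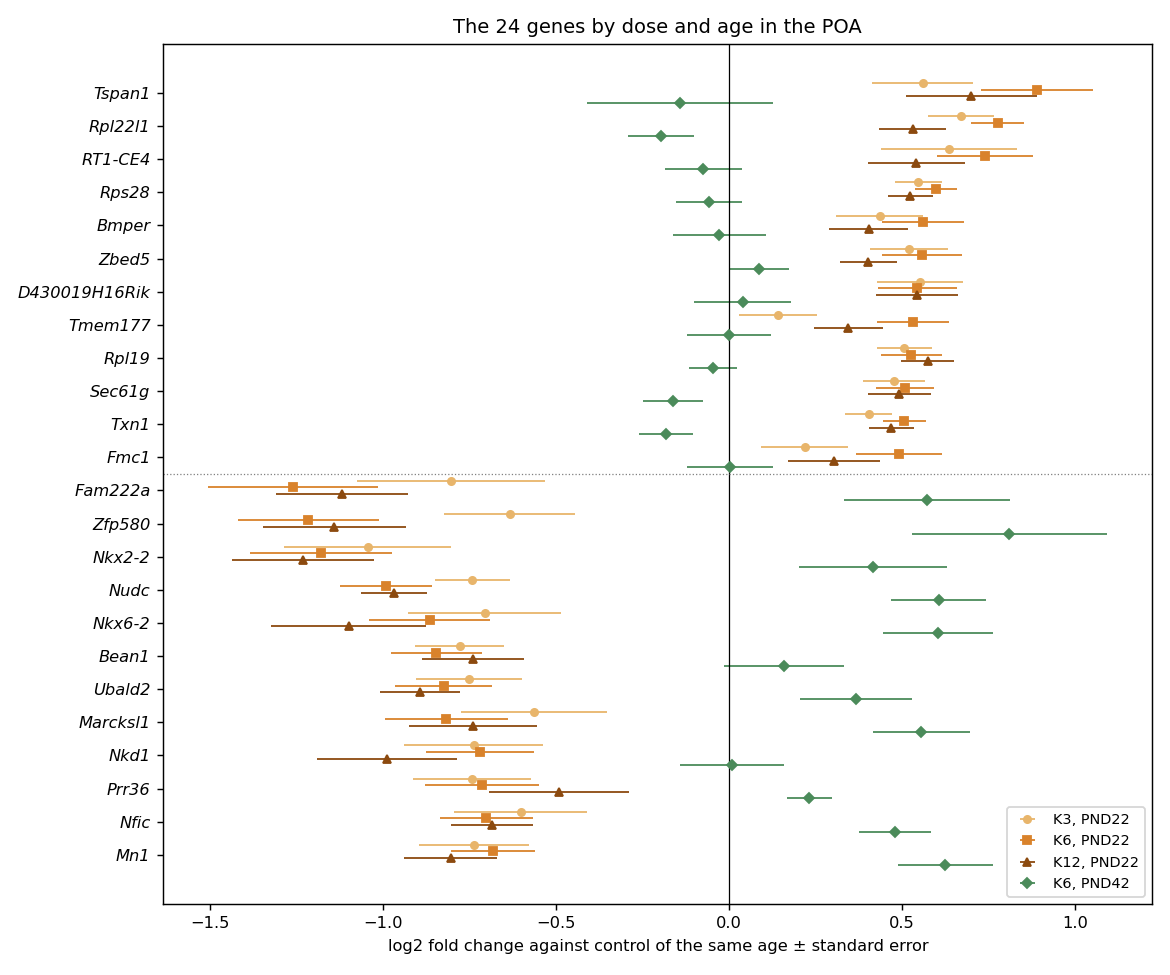
Log2 fold change (± SE, 5 against 5 libraries) of the 24 genes against control of the same age, for K3 (circles), K6 (squares) and K12 (triangles) at PND22, which share their control libraries, and for K6 at PND42 (diamonds). The PND22 values lie on the same side of 0 in all 24 genes, and the PND42 values are at or beyond 0 on the other side in most, for example -0.99 at PND22 and 0.60 at PND42 for Nudc.

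By the rule for named genes, the interaction gave Moap1 upward and Cox6b1, Ftcd, Rps27a and Lipt2 downward beside genes already described. Ftcd, an enzyme of histidine and folate metabolism, had 4.40 ± 1.12 CPM in control and 7.53 ± 1.22 CPM in K6 at PND22 and 5.80 ± 1.08 and 4.14 ± 0.514 CPM at PND42 (SD, n = 5; interaction adjusted p = 0.00462). Moap1, a proapoptotic adapter, had 3.87 ± 0.719 and 2.73 ± 1.09 CPM at PND22 and 1.35 ± 0.402 and 3.50 ± 0.440 CPM at PND42 (interaction adjusted p = 0.00278). Kiss1r, which passed at neither age, had an interaction of 0.72 (adjusted p = 0.0199).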

How the data were processed

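The transcriptome was read in 210 libraries, of which the POA libraries of control, K3, K6 and K12 at PND22 and of control and K6 at PND42 were used, together with the MBH controls at PND22 for region genes. Each group came from the labels. The authors deposited raw counts of 32883 Ensembl genes, 1 column per library, made with STAR on Rnor_6.0 and featureCounts from paired reads of stranded libraries. The strand setting of the counting is not given in the sources used here, so overlapping and antisense genes are uncertain. Per the labels, bcl2fastq 2.20 was used.

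The analysis ran in R 4.3.3 with edgeR 4.0.16, using TMM factors, filterByExpr at a minimum count of 10, the two-sided quasi-likelihood test on the groups compared and Benjamini-Hochberg adjustment over all genes tested. A call means an adjusted p-value below 0.05, whatever the fold. Alternatives were DESeq2 1.42.0, median-of-ratios factors, no filter, a replicate block, other groups in the fit and each library left out. The fits were tested on simulated data. Libraries of 12601314 to 18199259 counts limit the precision of genes under a few CPM. Counting errors alone are covered by limits on counts of 0, since reads carry no molecular identifiers.

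Named genes were the 12 largest changes in each direction with a symbol that is not provisional, a log2 CPM averaging 1 or more and a call with and without control replicate 4, to which came 28 genes of interest, up to 4 called members with the smallest p of each of 40 lists, and up to 5 per direction of the direct and age comparisons; others are marked as chosen later. Of the 28, 26 were tested and 1 (Nkx2-2) was called. The members and lists were chosen with earlier results of these data known. Start-site sequences are from RefSeq (GRCr8). Certain genes are not reported here.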

Additional observations from a re-analysis of the deposited data

Results flagged for a closer look

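In 102 groups of 5 libraries, made of named genes in control or K6, 5 had a library far from the others, and chance alone flags about 1 in 20 groups. Control replicate 4 was far above the other control libraries for Foxb1 (11.0 CPM) and Lmx1a (15.2 CPM). K6 replicate 1 was far below the other K6 libraries for RT1-CE4 (5.82 CPM) and far above them for Ppara (2.69 CPM). Control replicate 2 was far above the others for Gpr17 (193 CPM) and also had the highest sum of mature oligodendrocyte transcripts, 29798 CPM.

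By the interaction of age and exposure, the effect of K6 differed between PND22 and PND42 for 21 genes. They were among the 24 with the largest changes and the 28 genes of interest, other named genes not being counted here. Over all genes 6.59% passed the interaction. The 24 were chosen on PND22 libraries that also enter it, which favors an opposite sign, so their number is a description. The log2 fold change at PND42 minus that at PND22 was negative for genes higher at PND22: -0.98 for Rpl22l1, -0.82 for RT1-CE4, -0.67 for Rps28, -0.59 for Bmper, -0.48 for Zbed5, -0.54 for Tmem177, -0.58 for Rpl19, -0.68 for Sec61g and -0.70 for Txn1. It was positive for genes lower at PND22: 1.82 for Fam222a, 2.01 for Zfp580, 1.58 for Nkx2-2, 1.59 for Nudc, 1.46 for Nkx6-2, 0.99 for Bean1, 1.18 for Ubald2, 1.36 for Marcksl1, 0.93 for Prr36, 1.17 for Nfic and 1.30 for Mn1. For Kiss1r, which was called at neither age, it was 0.72.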

How the results depend on the processing

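For K6 against control, the 602 genes became 1168 with DESeq2, which called 592 of the 602, 1087 with DESeq2 without control replicate 4, 1062 in 1 fit of control and the 3 KTZ groups and 1197 in 1 fit of the 7 groups. Leaving out 1 library gave 192 to 542 genes. Median-of-ratios factors gave 601 and no filter on low counts 449. The replicate numbers of the titles did not pair the libraries (correlations of same-numbered libraries from -0.233 to 0.254, and 2 of 5 numbers correlated best with themselves), and with them as a replicate block 184 genes passed and the age interaction gave 553 in place of 975. Against K3 the 0 became 1 with DESeq2 and 0 to 1 on leaving out a library (Rab1b without K3 replicate 1, a gene with a provisional symbol without K3 replicate 3), and against K12 0 to 1 (Adamts13 without K12 replicate 2). These singles were named after their values were seen.

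Reversed signs concerned genes that were not called. Leaving out 1 library, the log2 fold change ranged from -0.084 to 0.257 for Esr2, from -0.001 to 0.189 for Pgr, from -0.210 to 0.345 for Oxt, from -0.205 to 0.281 for Nts and from -2.376 to 0.380 for Lmx1a. The sign of Lmx1a turned without control replicate 4 alone, and those of Esr2 and Oxt without it and without others. Without it, median-of-ratios factors gave -0.087 for Esr2, -0.213 for Oxt and 0.377 for Lmx1a, and DESeq2 gave -0.212 for Oxt. With the replicate block, Nts was at 0.028. The causes were not tested. Depth limits the result for Pparg and Kiss1, which were too low to test.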

Other observations

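Other families were chosen after their values were seen, so their counts are a description. Of 36 proteasome subunits tested, 5 were higher and 1 lower, among them Psmb5 (log2 fold change 0.31, SE 0.06, adjusted p = 0.0103) and Psmb4 (0.29, SE 0.06, adjusted p = 0.0157) of the catalytic core. Of 22 subunits of the vacuolar proton pump, which acidifies lysosomes and synaptic vesicles, 4 were higher and 1 lower, and of 11 subunits of translation initiation factor 3, 3 were higher and 1 lower. Of 21 genes of the translocon and signal peptide machinery, 4 were higher and 1 lower, among them Ssr2 (0.33, SE 0.05, adjusted p = 0.00785). Over all genes 1.91% were higher and 2.29% lower, from which nothing is read about families chosen in this way.

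Of 38 BTB zinc finger genes, which encode transcriptional regulators, 0 were higher and 4 lower: Zbtb7a (log2 fold change -0.59, adjusted p = 0.009), Zbtb7b (-0.57, adjusted p = 0.0204), Zbtb47 (-0.42, adjusted p = 0.0109) and Zbtb4 (-0.36, adjusted p = 0.0141). Over all genes 1.91% were higher and 2.29% lower. The numbers of the family were the same without control replicate 4, beside 1.58% and 2.19% of all genes. This family was also chosen after its values were seen, so its counts are a description in both fits.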
